A study of Mus musculus with 18 samples.

Results

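The enzymes described here are the conjugating and carbonyl-removing members of drug and aldehyde metabolism that the platform annotation names by the symbols Gsta, Gstm, Gstp, Gstt, Gsto, Mgst, Ugt1, Ugt2, Sult, Aldh, Aox, Cbr, Fmo and Pon followed by a digit, with pseudogenes left out. The rule uses symbols and no measured values, but the enzymes were chosen with earlier results of these data known. Where a gene had several probe sets, the brightest was used. Of 30142 genes with a probe set of their own, 85 met the rule: 20 aldehyde dehydrogenases (ALDH), 19 sulfotransferases (SULT), 8 UDP-glucuronosyltransferases (UGT), 7 mu, 4 theta, 3 alpha, 2 pi and 2 omega glutathione S-transferases (GST), 3 microsomal glutathione transferases (MGST), 6 flavin monooxygenases (FMO), 4 aldehyde oxidases (AOX), 4 carbonyl reductases (CBR) and 3 paraoxonases (PON). Genes of the Ugt1 cluster were not analysed here.

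Glutathione transferases join glutathione to electrophiles such as epoxides and the unsaturated aldehydes of lipid peroxidation, while sulfotransferases and glucuronosyltransferases add sulfate or glucuronic acid to alcohols and phenols. Aldehyde dehydrogenases and aldehyde oxidases oxidise aldehydes to acids, carbonyl reductases reduce carbonyl groups to alcohols, flavin monooxygenases oxidise nitrogen and sulfur atoms, and paraoxonases hydrolyse lactones and organic esters. In the lung many of these enzymes are known from the secretory club cells of the airway epithelium, a main site of local metabolism of inhaled chemicals.

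The study profiled epithelial cells from the distal lungs of TCF/Lef:H2B/GFP mice, in which a Wnt/β-catenin responsive promoter drives a nuclear green fluorescent protein (GFP). Mice were 8 to 12 weeks old and untreated as far as the labels say. Lungs with trachea and bronchi were digested with dispase, beads removed cells carrying CD31 or CD45, EpCAM positive cells were selected, and live EpCAM positive cells were sorted by GFP into Wnt-high, Wnt-low and Wnt-negative fractions. All 3 groups carry the reporter, each had 6 arrays, each array held 8 ng of RNA of cells pooled from 3 to 4 animals, and GFP reports transcription through TCF/Lef sites in the sorted cell and not which cell type it is.

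The arrays were taken as 2 runs, experiments 2 to 5 and experiments 7 to 9, with 3 arrays of each group in both. No label names a run, and the split was inferred from the experiment numbers and from the values, whose scale and number of decimals change between them as after separate normalizations. Medians were 4.62 to 4.77 in the earlier and 3.55 to 3.69 in the later run on the deposited log2 scale, so levels are compared within a run and an SD over 6 arrays includes this offset. A background limit, the 95th percentile of 23 control probe sets on each array, lay at 4.57 to 5.17, and values above 16.35 to 17.32, a limit that only the brightest genes of an array pass, are at the top of the scale, where differences may be compressed. Where no array of the lower group in at least 1 run was above the background limit, that group is called at background and its difference is given as a lower bound, with values under the limit set to the limit. The deposited values exceed the usual range of a scanner, so differences are on the deposited log2 scale and are not ratios of RNA amounts, and levels of different genes are not set against each other.

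Levels of lung cell type markers differed between the sorted fractions. The 4 epithelial markers had means of 14.39 to 14.94 on Wnt-high, 14.38 to 14.88 on Wnt-low and 13.61 to 14.42 on Wnt-negative arrays. All 6 measured ciliated markers were higher in Wnt-high than in Wnt-low and in both than in Wnt-negative cells, and their mean was 14.33 to 14.92 on Wnt-high, 9.44 to 13.89 on Wnt-low and 4.75 to 7.69 on Wnt-negative arrays. The 4 measured club markers had means of 14.55 to 16.91 on Wnt-high, 17.11 to 18.65 on Wnt-low and 11.56 to 13.79 on Wnt-negative arrays, and the 6 goblet markers 6.49 to 9.85, 10.78 to 12.40 and 4.12 to 5.34 in the same order of groups. For the 7 alveolar type II markers the means were 12.37 to 16.83, 15.55 to 17.77 and 17.92 to 18.91, and for the 6 alveolar type I markers 5.02 to 8.51, 7.03 to 9.46 and 8.33 to 10.03. Of 5 endothelial markers 4 never rose above the background limit, but Kdr averaged 6.48 ± 1.45 in Wnt-high pools, 10.58 ± 0.87 in Wnt-low pools and 4.57 ± 0.61 in Wnt-negative cells (SD, n = 6 each). The 6 myeloid markers had means of 5.19 to 7.18 on Wnt-high, 5.80 to 7.50 on Wnt-low and 6.80 to 7.71 on Wnt-negative arrays, with Lyz1 and Cd68 called lower in the Wnt-high fraction than in the Wnt-negative one. Ptprc and Tyrobp, defining markers of that list, were above background on no array, and Marco on at most 1 of 6 in any group. The 4 fibroblast markers had means of 3.37 to 5.07 on Wnt-high, 3.56 to 5.50 on Wnt-low and 3.35 to 4.96 on Wnt-negative arrays. Dcn alone of them was called, higher in Wnt-low than in Wnt-negative (1.11) and lower in Wnt-high than in Wnt-low cells (−1.18). It was above the background limit on 1 of 6 Wnt-high, 4 of 6 Wnt-low and 3 of 6 Wnt-negative arrays. The 4 mesothelial markers, with means of 3.51 to 6.25, 3.49 to 6.78 and 3.52 to 5.25 in that order of groups, were not called. In pooled RNA, fewer cells of a type and less of a transcript per cell cannot be told apart. The part of cell type in the enzyme results below was not tested.

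Single arrays stood apart from their group. The Wnt-high array of experiment 2 had the lowest club (14.55), goblet (6.49) and alveolar type II (13.17) marker means of the Wnt-high arrays of its run, and the Wnt-high array of experiment 4 the highest (16.91, 9.85 and 16.83). The Wnt-low array of experiment 4 had a ciliated marker mean of 10.08, against 13.89 and 12.78 on the Wnt-low arrays of experiments 3 and 5. Those of experiments 7 to 9 had 9.44, 11.39 and 10.31, so the array of experiment 3 was the highest of the group. Mesothelial marker means were highest in experiment 4, at 6.25 in Wnt-high (5.04 and 5.08 in experiments 2 and 5). In Wnt-low cells that mean was 6.78 (5.21 in experiments 3 and 5). Counts without the experiments or arrays concerned follow the main counts.

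A gene was called where limma, fitted to all 18 arrays with the run as a term, gave a Benjamini-Hochberg adjusted p under 0.05 over all genes and a log2 difference of at least 1. Of the 85 enzymes, 48 lay above the background limit on all 6 arrays of at least 1 group and 29 on no array at all. Over all genes 12005 of 30142 met the first of these conditions, and the shares of all genes below include those that did not. Calls in at least 1 comparison were made for 41 of the 85, against 15.8% of all genes.

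Against Wnt-negative cells, Wnt-high cells had 20 of the 85 enzymes called higher and 9 lower, where 6.62% and 7.28% of all genes were called (13.9% in either direction). Wnt-low cells had 29 called higher and 1 lower, where the background was 4.32% and 3.32% (7.65% in either direction). Between the reporter-positive fractions, Wnt-high cells had 3 enzymes called higher and 23 lower than Wnt-low cells, against 4.27% and 4.83% of all genes (9.1% in either direction). The median difference over the 85 enzymes was −0.01, 0.14 and −0.08 in these comparisons, against −0.05, −0.03 and −0.01 over all genes. Among the 85 are the 29 enzymes that never rose above background, which pull these medians towards 0. By the adjusted p alone, 44, 43 and 35 of the 85 passed, against 40.3%, 25.5% and 27.9% of all genes.

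Counting enzymes whose groups did not overlap in either run, 27 were higher and 16 lower in Wnt-high cells than in Wnt-negative cells (12.9% and 17.8% of all genes). It was 35 higher and 2 lower for Wnt-low against Wnt-negative (8.98% and 6.57%), and 4 higher and 21 lower for Wnt-high against Wnt-low (8.04% and 10.3%). A fit with no run term called 24, 28 and 16 enzymes in the 3 comparisons, against 9.06%, 3.43% and 4.31% of all genes. In experiments 2 to 5 alone, Wnt-high against Wnt-low gave 9 called enzymes. Without every array of experiment 2 the Wnt-high against Wnt-negative count was 20 higher and 7 lower, and the Wnt-high against Wnt-low count 4 higher and 23 lower. Without every array of experiment 4 the counts were 19 higher and 9 lower for Wnt-high against Wnt-negative, 30 higher and 3 lower for Wnt-low against Wnt-negative, and 3 higher and 26 lower for Wnt-high against Wnt-low. Without the Wnt-low arrays of experiments 3 and 4, Wnt-low against Wnt-negative gave 30 higher and 3 lower, and Wnt-high against Wnt-low 3 higher and 26 lower.

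**Figure D1:**
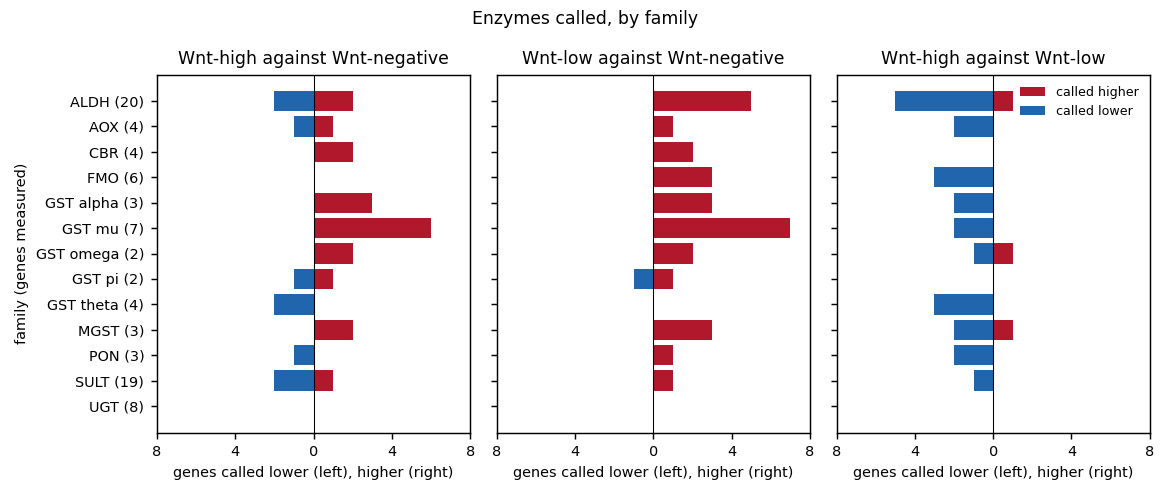
Number of enzymes called lower (left of 0, blue) and higher (right of 0, red) in each family, with the number of genes measured in brackets, for the 3 comparisons. All 7 mu class transferases were called higher in Wnt-low than in Wnt-negative cells, and the UGT row is empty throughout.

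The alpha class held 3 measured genes, and all 3 were called higher in both reporter-positive fractions than in Wnt-negative cells. Gsta3, whose product in mice conjugates the epoxide of aflatoxin, read 8.51, 10.50 and 10.24 on the Wnt-high, 12.00, 11.04 and 12.96 on the Wnt-low and 7.60, 7.91 and 8.08 on the Wnt-negative arrays of experiments 2 to 5. The later run gave 7.78, 8.13 and 8.13 in Wnt-high pools, 12.21, 11.89 and 11.68 in Wnt-low pools and 5.72, 6.33 and 6.25 in Wnt-negative cells. Wnt-low cells lay above the other fractions in both runs with no overlap. The difference was 4.98 ± 0.40 (SE) for Wnt-low against Wnt-negative (adjusted p = 5.7e-07), 1.90 ± 0.40 for Wnt-high against Wnt-negative (0.00104) and −3.08 ± 0.40 for Wnt-high against Wnt-low (2.4e-05).

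Gsta2 followed the same order, with 1.15 ± 0.32 for Wnt-high against Wnt-negative, 4.10 ± 0.32 for Wnt-low against Wnt-negative and −2.95 ± 0.32 for Wnt-high against Wnt-low cells. Gsta4, which conjugates the lipid aldehyde hydroxynonenal, averaged 14.15 ± 0.44 in Wnt-high pools, 15.14 ± 0.34 in Wnt-low pools and 12.69 ± 0.73 in Wnt-negative cells (SD, n = 6 each). It was called higher in both positive fractions, by 1.46 ± 0.22 (adjusted p = 4.41e-05) and 2.44 ± 0.22 (1.68e-06). Its difference between Wnt-high and Wnt-low was −0.99 ± 0.22 (adjusted p = 0.0025), short of the size required for a call.

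The mu class detoxifies epoxides and quinones. Of its 7 genes, 6 were called higher in Wnt-high and 7 in Wnt-low than in Wnt-negative cells, with a class median of 2.88 and 3.03. Gstm1 read 16.04, 15.99 and 16.36 on the Wnt-high, 15.78, 14.87 and 16.20 on the Wnt-low and 12.22, 11.99 and 12.58 on the Wnt-negative arrays of experiments 2 to 5. In experiments 7 to 9 it read 17.06, 17.11 and 17.19 in Wnt-high pools, 17.14, 17.05 and 16.94 in Wnt-low pools and 11.84, 11.91 and 12.13 in Wnt-negative cells. The positive fractions overlapped and the negative fraction lay below both on every array. The difference was at least 4.51 for Wnt-high (adjusted p = 6.47e-09), which was at the top of the scale in experiments 7 to 9, and 4.22 ± 0.28 for Wnt-low cells (1.09e-07).

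Gstm2 separated the positive fractions as well. It averaged 14.27 ± 0.33 in Wnt-high pools, 15.90 ± 1.01 in Wnt-low pools and 9.77 ± 0.55 in Wnt-negative cells (SD, n = 6 each), and the difference of Wnt-high against Wnt-low was −1.63 ± 0.38 (adjusted p = 0.00323). That difference was −1.08 in experiments 2 to 5, where the groups overlapped, and −2.19 in experiments 7 to 9, where they did not. Gstm3 was at background in Wnt-negative cells, with bounds of at least 2.46 for Wnt-high and at least 2.61 for Wnt-low, and Gstm7 was higher by 3.70 ± 0.22 in Wnt-high and 3.35 ± 0.22 in Wnt-low cells. Gstm4 and Gstm6 were higher by smaller amounts (1.13 and at least 1.01 in Wnt-high pools, 1.15 and at least 1.92 in Wnt-low), and Gstm5 was called higher in Wnt-low cells, by at least 1.22 over Wnt-negative and at least 0.83 over Wnt-high cells.

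The pi class pair moved in opposite directions. Gstp1, a conjugating enzyme abundant in airway epithelium, averaged 16.04 ± 0.41 in Wnt-high pools, 15.07 ± 0.40 in Wnt-low pools and 13.97 ± 0.33 in Wnt-negative cells (SD, n = 6 each). Its differences were 2.07 ± 0.21 for Wnt-high (adjusted p = 6.82e-07) and 1.10 ± 0.21 for Wnt-low (0.00102) against Wnt-negative, and 0.97 ± 0.21 for Wnt-high against Wnt-low (0.002), just under the size for a call. The call in Wnt-low cells was lost in experiments 2 to 5 alone (0.65), without experiment 8 (0.91) and under quantile normalization (0.97). With the experiment as a replicate block the difference of Wnt-high against Wnt-low was 1.06 (adjusted p = 0.00622) and was called. Gstp3, its neighbour in the genome, was the only enzyme called lower in both positive fractions, by 3.43 ± 0.49 on the log2 scale in Wnt-high (adjusted p = 2.64e-05) and by 3.04 ± 0.49 in Wnt-low cells (0.000261).

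Gstp3 read 8.27, 9.49 and 8.18 on the Wnt-high, 8.54, 11.62 and 8.88 on the Wnt-low and 11.84, 12.20 and 12.38 on the Wnt-negative arrays of experiments 2 to 5. The middle Wnt-low value, 11.62, is that of experiment 4, and it came within reach of the Wnt-negative values. Experiments 7 to 9 gave 7.19, 7.69 and 7.54 in Wnt-high pools, 5.91, 7.88 and 7.84 in Wnt-low pools and 11.18, 10.79 and 10.54 in Wnt-negative cells. With experiments 2 to 5 alone, the Wnt-low difference was −2.46 and was not called (adjusted p = 0.105).

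Both omega class genes, which reduce dehydroascorbate and act as thioltransferases, were at background in Wnt-negative cells and higher in both positive fractions. Gsto1 read 8.89, 9.49 and 9.19 on the Wnt-high, 10.16, 9.34 and 10.60 on the Wnt-low and 4.99, 5.14 and 5.61 on the Wnt-negative arrays of experiments 2 to 5. In experiments 7 to 9 the values were 6.67 on every Wnt-high array, 8.64, 8.81 and 8.48 in Wnt-low pools and 4.35, 3.97 and 3.93 in Wnt-negative cells. The bounds over Wnt-negative were at least 2.87 for Wnt-high (adjusted p = 3.38e-08) and at least 4.28 for Wnt-low (1.51e-08). Between the positive fractions Gsto1 and Gsto2, which lie side by side, went opposite ways, at −1.41 ± 0.25 for Gsto1 (adjusted p = 0.000379) and 1.37 ± 0.26 for Gsto2 (0.000566). Neither was called in that comparison without the run term (adjusted p = 0.248 and 0.198) or in experiments 2 to 5 alone (0.161 and 0.0594).

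Of the 4 theta class genes, whose products act on small halogenated molecules, 2 were called lower in Wnt-high against Wnt-negative and 3 in Wnt-high against Wnt-low cells, and none was called higher in any comparison. Gstt4 never rose above background. Gstt1 read 8.47, 11.61 and 10.23 on the Wnt-high, 12.19, 13.52 and 13.03 on the Wnt-low and 13.40, 13.58 and 13.56 on the Wnt-negative arrays of experiments 2 to 5. Its later values were 8.01, 9.09 and 9.42 in Wnt-high pools, 13.02, 12.72 and 12.77 in Wnt-low pools and 13.11, 13.34 and 12.93 in Wnt-negative cells. No Wnt-high value reached the other groups, and the Wnt-high array of experiment 4 came nearest. Differences were −3.85 ± 0.42 against Wnt-negative (adjusted p = 1.37e-06) and −3.40 ± 0.42 against Wnt-low cells (1.51e-05). Gstt3 was called lower in Wnt-high than in Wnt-negative (−1.02) and Wnt-low cells (−1.42), and Gstt2 only against Wnt-low cells (−1.16 ± 0.17).

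The 3 microsomal transferases did not share a pattern between the positive fractions. Mgst1, a membrane enzyme with transferase and peroxidase activity, read 13.17, 13.63 and 13.38 on the Wnt-high, 14.19, 14.11 and 14.85 on the Wnt-low and 13.71 on every Wnt-negative array of experiments 2 to 5. Experiments 7 to 9 gave 12.56, 12.77 and 12.91 in Wnt-high pools, 15.24, 14.74 and 14.72 in Wnt-low pools and 13.19, 13.26 and 13.05 in Wnt-negative cells. Wnt-low was highest in both runs, by 1.20 ± 0.20 over Wnt-negative (adjusted p = 0.00038), while Wnt-high lay 1.57 ± 0.20 below Wnt-low on the log2 scale (2.29e-05). In experiments 2 to 5 alone neither difference was called. They were 0.67 for Wnt-low against Wnt-negative (adjusted p = 0.0871) and −0.99 for Wnt-high against Wnt-low (0.0321), the latter short of the size for a call. Mgst2, which can make leukotriene C, was higher by 1.24 ± 0.31 in Wnt-high and 3.15 ± 0.31 in Wnt-low than in Wnt-negative cells. Mgst3, a related membrane enzyme, was highest in Wnt-high cells, at 10.88 ± 0.67, against 9.38 ± 0.98 in Wnt-low pools and 7.76 ± 0.89 in Wnt-negative cells (SD, n = 6 each), and the difference between the positive fractions was 1.50 ± 0.20 (adjusted p = 2.65e-05).

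**Figure D2:**
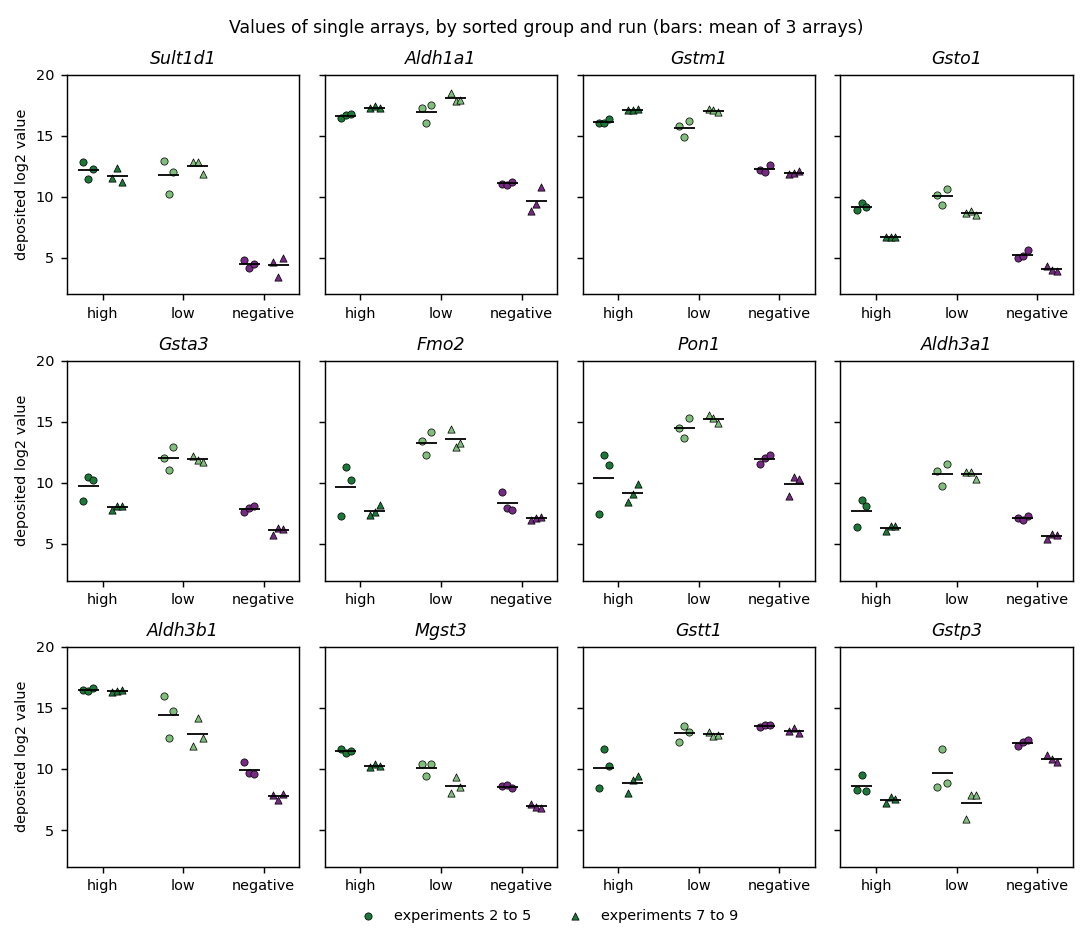
Deposited log2 values of 12 enzymes on single arrays, by sorted group (Wnt-high, Wnt-low, Wnt-negative from left to right) and run (circles, experiments 2 to 5; triangles, experiments 7 to 9); bars are means of 3 arrays. Sult1d1 lay at or below 5.00 on every Wnt-negative array and at or above 10.24 on every other array, Fmo2 and Pon1 were highest in Wnt-low cells, and Aldh3b1 lay between 16.31 and 16.61 on the Wnt-high arrays.

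Of 20 aldehyde dehydrogenases, 9 were called in at least 1 comparison, where 15.8% of all genes were. Aldh1a1, which makes retinoic acid from retinaldehyde, read 16.42, 16.68 and 16.78 on the Wnt-high, 17.26, 16.01 and 17.47 on the Wnt-low and 11.04, 10.99 and 11.20 on the Wnt-negative arrays of experiments 2 to 5. In experiments 7 to 9 it read 17.23, 17.39 and 17.25 in Wnt-high pools, 18.47, 17.86 and 17.90 in Wnt-low pools and 8.86, 9.39 and 10.78 in Wnt-negative cells. Differences against Wnt-negative were at least 6.58 for Wnt-high (adjusted p = 9.78e-09) and at least 7.12 for Wnt-low (5.32e-08). Wnt-high was at the top of the scale on every array of both runs and Wnt-low on every array of experiments 7 to 9, so a difference between them could not be read. Its neighbour Aldh1a7, a rodent paralogue, was called higher in Wnt-low than in both other fractions, at 16.97 ± 0.58 against 14.61 ± 0.59 in Wnt-high and 14.32 ± 0.58 in Wnt-negative cells (SD, n = 6 each).

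Aldh3b1, which oxidises medium and long chain lipid aldehydes, was highest in Wnt-high cells. It read 16.51, 16.40 and 16.61 on the Wnt-high, 15.98, 12.50 and 14.75 on the Wnt-low and 10.56, 9.68 and 9.60 on the Wnt-negative arrays of experiments 2 to 5. Later values were 16.31, 16.41 and 16.45 in Wnt-high pools, 11.89, 14.21 and 12.56 in Wnt-low pools and 7.90, 7.44 and 7.93 in Wnt-negative cells. Wnt-high arrays agreed closely and Wnt-low arrays were spread, in the order of their ciliated marker means in both runs, with 3 arrays in each. A link between the 2 orders was not tested. The Wnt-high values lay close to the top limit, and above it in experiments 2 and 5, so their spread and the differences may be compressed. Differences were 7.60 ± 0.53 for Wnt-high (adjusted p = 1.28e-08) and 4.80 ± 0.53 for Wnt-low (1.12e-05) against Wnt-negative, and 2.80 ± 0.53 for Wnt-high against Wnt-low (0.000628).

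Aldh3a1, which oxidises aromatic and lipid aldehydes and is also a structural protein of the cornea, was called higher in Wnt-low than in both other fractions and not between those. It averaged 7.00 ± 1.07 in Wnt-high pools, 10.73 ± 0.62 in Wnt-low pools and 6.38 ± 0.82 in Wnt-negative cells (SD, n = 6 each). The differences were 4.35 ± 0.38 for Wnt-low against Wnt-negative (adjusted p = 1.38e-06) and −3.73 ± 0.38 for Wnt-high against Wnt-low (4.48e-06). Smaller calls fell on enzymes of general metabolism. Aldh1l1, a folate enzyme, was lower in Wnt-high than in Wnt-negative and Wnt-low cells (−2.45 ± 0.25 and −1.69 ± 0.25), as was Aldh9a1, which oxidises aminobutyraldehyde, against Wnt-negative cells (−1.04 ± 0.18). The mitochondrial enzymes Aldh2 and Aldh7a1 were lower in Wnt-high than in Wnt-low cells (−1.07 ± 0.17 and −1.28 ± 0.12), and Aldh5a1, a mitochondrial semialdehyde dehydrogenase, was higher in Wnt-low than in Wnt-negative cells by at least 1.43.

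All 4 carbonyl reductases were above background. Cbr2, the mitochondrial carbonyl reductase known from mouse lung, sat at the top of the scale everywhere, at 18.69 to 19.88 on Wnt-high, 18.69 to 19.93 on Wnt-low and 18.43 to 19.87 on Wnt-negative arrays, so no difference between groups could be read. Cbr1 and Cbr3, neighbouring cytosolic reductases, were called higher in both positive fractions, Cbr1 by 1.60 ± 0.13 in Wnt-high and 1.19 ± 0.13 in Wnt-low, and Cbr3 by at least 2.28 and at least 2.12 from a background level in Wnt-negative cells. Neither was called between Wnt-high and Wnt-low cells, and Cbr4 was not called.

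The aldehyde oxidases Aox1 and Aox3, molybdenum enzymes that are neighbours in the genome, took different patterns. Aox3 read 8.50, 12.98 and 11.52 on the Wnt-high, 14.43, 14.70 and 15.46 on the Wnt-low and 14.41, 14.40 and 14.37 on the Wnt-negative arrays of experiments 2 to 5. Experiments 7 to 9 gave 8.74, 8.93 and 10.09 in Wnt-high pools, 16.09, 14.87 and 15.45 in Wnt-low pools and 13.90, 14.36 and 14.14 in Wnt-negative cells. Every Wnt-high value was below every other, with the Wnt-high array of experiment 2 lowest and that of experiment 4 highest. Aox3 differed by −4.13 ± 0.61 from Wnt-negative (adjusted p = 3.26e-05) and by −5.03 ± 0.61 from Wnt-low cells (1.26e-05). Aox1 was instead lowest in Wnt-negative cells, at 9.06 ± 0.79 in Wnt-high pools, 10.61 ± 1.02 in Wnt-low pools and 7.54 ± 0.75 in Wnt-negative cells (SD, n = 6 each). Aox2 and Aox4 never rose above background.

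Among the flavin monooxygenases, Fmo1, Fmo2 and Fmo6 were called higher in Wnt-low than in Wnt-negative and in Wnt-high cells, and none was called in the comparison of Wnt-high with Wnt-negative cells. Fmo2, the main flavin monooxygenase of the lung in most mammals, read 7.32, 11.29 and 10.27 on the Wnt-high, 13.46, 12.24 and 14.17 on the Wnt-low and 9.24, 7.92 and 7.77 on the Wnt-negative arrays of experiments 2 to 5. It read 7.40, 7.59 and 8.19 in Wnt-high pools, 14.44, 12.97 and 13.27 in Wnt-low pools and 6.94, 7.12 and 7.21 in Wnt-negative cells of experiments 7 to 9. Wnt-low stood above both other groups on every array, while the early Wnt-high arrays spread from below the Wnt-negative range to well above it. Differences were 5.72 ± 0.60 against Wnt-negative for Wnt-low (adjusted p = 7.3e-06) and −4.75 ± 0.60 for Wnt-high against Wnt-low (1.88e-05). For Fmo1 they were 4.07 ± 0.50 and −3.25 ± 0.50, and for Fmo6, at background in both other groups, at least 2.90 and at least 2.67 in favour of Wnt-low.

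Pon1, an esterase that the liver secretes onto high density lipoprotein, was highest in Wnt-low cells. It read 7.48, 12.29 and 11.49 on the Wnt-high, 14.45, 13.67 and 15.35 on the Wnt-low and 11.53, 12.01 and 12.28 on the Wnt-negative arrays of experiments 2 to 5. In experiments 7 to 9 it read 8.41, 9.12 and 9.87 in Wnt-high pools, 15.59, 15.30 and 14.91 in Wnt-low pools and 8.92, 10.50 and 10.31 in Wnt-negative cells. Wnt-high and Wnt-negative values overlapped in both runs and Wnt-low values lay above both, by 3.95 ± 0.72 over Wnt-negative (adjusted p = 0.000644), with −5.10 ± 0.72 for Wnt-high against Wnt-low (4.41e-05). Pon3 was highest in Wnt-negative cells and lowest in Wnt-high cells, with −2.83 ± 0.27 for Wnt-high against Wnt-negative (adjusted p = 2.98e-07) and −2.16 ± 0.27 for Wnt-high against Wnt-low (1.61e-05). Pon2 was not called.

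Of 19 sulfotransferases, 14 never rose above background and 3 were called in at least 1 comparison, a share equal to the 15.8% of all genes. Sult1d1, which sulfates catecholamines in mice, read 12.82, 11.46 and 12.23 on the Wnt-high, 12.90, 10.24 and 12.06 on the Wnt-low and 4.78, 4.12 and 4.52 on the Wnt-negative arrays of experiments 2 to 5. Its later values were 11.54, 12.33 and 11.17 in Wnt-high pools, 12.80, 12.86 and 11.83 in Wnt-low pools and 4.68, 3.45 and 5.00 in Wnt-negative cells. The positive fractions overlapped, and the negative fraction was at background, which gives at least 6.90 for Wnt-high (adjusted p = 5.59e-09) and at least 7.10 for Wnt-low (2.67e-08). Sult1a1, the phenol sulfotransferase, ran the other way, at 6.07 ± 0.88 in Wnt-high pools, 7.42 ± 0.94 in Wnt-low pools and 8.39 ± 0.87 in Wnt-negative cells (SD, n = 6 each). Sult2b1, which sulfates cholesterol, was lower in Wnt-high cells than in Wnt-negative cells by at least 0.70. None of the 8 glucuronosyltransferases of the Ugt2 cluster rose above background on any array.

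Grouped by where each enzyme peaked, 14 were called higher in Wnt-low than in both other fractions: Aldh1a7, Aldh3a1, Aox1, Fmo1, Fmo2, Fmo6, Gsta2, Gsta3, Gstm2, Gstm5, Gsto1, Mgst1, Mgst2 and Pon1. Over all genes 0.952% were called in this way. Aldh3b1, Gsto2 and Mgst3 of the 85 peaked in Wnt-high cells, a share near the 4.11% of all genes, and Gstp3 in Wnt-negative cells (3.16% of all genes). Called lower in Wnt-negative than in both positive fractions were 20 enzymes (3.35% of all genes), 6 were called lower in Wnt-high than in both others (3.28%), and none was called lower in Wnt-low than in both others (0.0398%). The Wnt-low peak held 4 enzymes in experiments 2 to 5 alone and 18 in experiments 7 to 9 alone, and 18 without the Wnt-low arrays of experiments 3 and 4. The Wnt-negative peak held 3 enzymes without experiment 4 and also without those Wnt-low arrays, and 0 in experiments 2 to 5 alone. Without the run term the Wnt-high peak held 1 enzyme and 3 were called lower in Wnt-high than in both others. The goblet and club marker means were also highest in Wnt-low cells, as were Kdr and Dcn. The other endothelial markers measured never rose above the background limit, and no other fibroblast marker measured was called. The part of cell type in the Wnt-low peak was not tested.

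**Figure D3:**
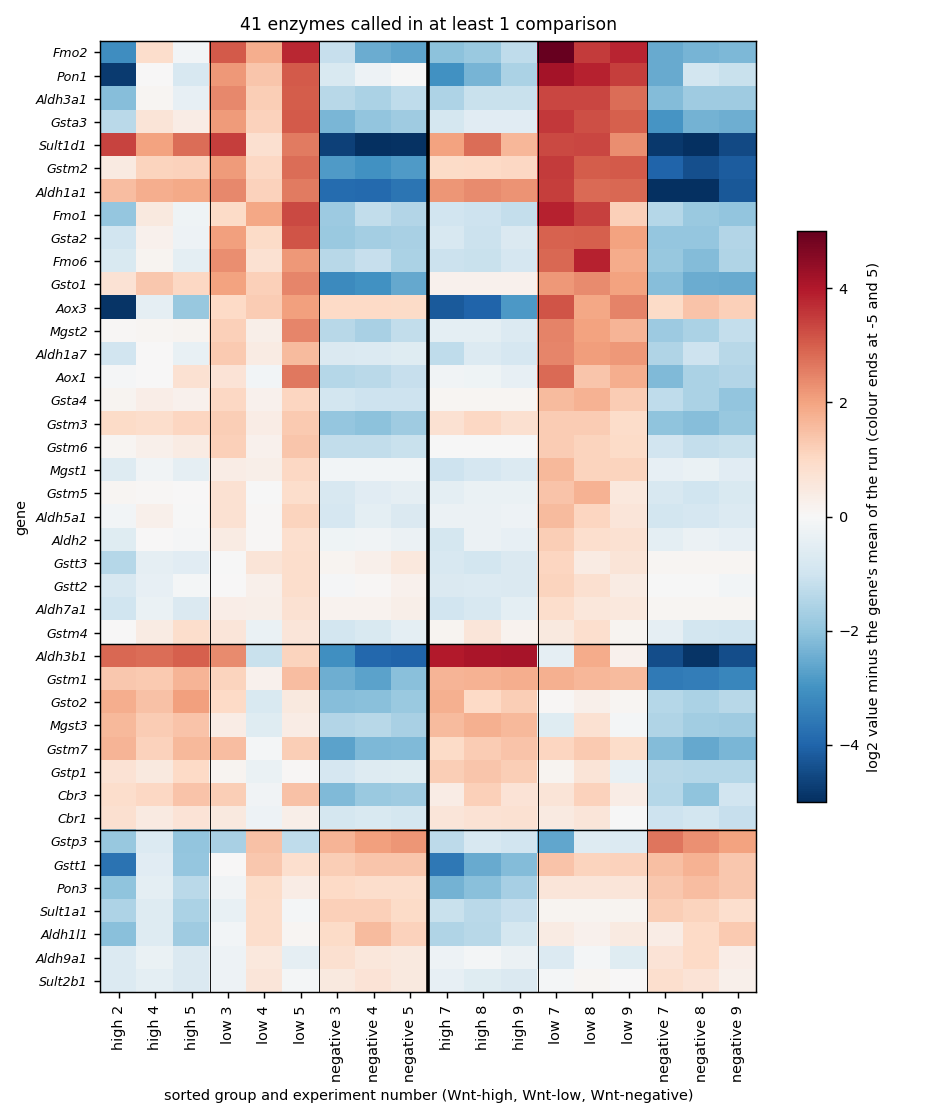
Values of the 41 enzymes called in at least 1 comparison, as the log2 value minus the mean of the gene over the 9 arrays of the run (red above, blue below), for experiments 2 to 5 left and 7 to 9 right of the thick line. Rows are divided by the group with the highest mean, Wnt-low at the top (26 rows), then Wnt-high (8 rows), then Wnt-negative (7 rows). The Wnt-high array of experiment 2 is the darkest blue of its group for Pon1, Aox3 and Fmo2.

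The antioxidant response element, through which the factor NRF2 induces many of these enzymes, was looked for in the promoters of the enzymes. It was also counted within the groups of calls above, which were formed from these same data. RefSeq promoters on GRCm38.p6, 300 bases around a listed start, were matched for 72 of the 85 enzymes. The core TGACNNNGC, on either strand, was present for 8 of these 72 (11.1%) and for 14.0% of 27025 genes, and for 6 of the 35 matched enzymes called in any comparison. It was present for 3 of the 12 matched enzymes that peaked in Wnt-low cells and for 2 of the 19 that were lower in Wnt-negative than in both others. The 3 that peaked in Wnt-low cells are shown with the core in capitals, Gsta3 at chr1:21240335-21240634, Gstm5 at chr3:107895604-107895903 and Mgst1 at chr6:138140277-138140576 (1 of its 2 listed starts), all on the plus strand. In Mgst1 the capitals are the core of the opposite strand.
Gsta3: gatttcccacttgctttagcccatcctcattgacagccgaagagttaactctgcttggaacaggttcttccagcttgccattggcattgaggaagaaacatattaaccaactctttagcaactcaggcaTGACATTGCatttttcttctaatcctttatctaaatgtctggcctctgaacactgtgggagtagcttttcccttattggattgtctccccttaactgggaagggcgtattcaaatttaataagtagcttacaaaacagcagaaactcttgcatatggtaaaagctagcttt
Gstm5: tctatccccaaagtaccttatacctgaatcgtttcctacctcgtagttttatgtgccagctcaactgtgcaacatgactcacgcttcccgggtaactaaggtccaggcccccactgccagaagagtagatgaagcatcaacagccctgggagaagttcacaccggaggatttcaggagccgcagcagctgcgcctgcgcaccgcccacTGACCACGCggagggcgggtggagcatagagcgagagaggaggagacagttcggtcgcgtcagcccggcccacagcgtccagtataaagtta
Mgst1: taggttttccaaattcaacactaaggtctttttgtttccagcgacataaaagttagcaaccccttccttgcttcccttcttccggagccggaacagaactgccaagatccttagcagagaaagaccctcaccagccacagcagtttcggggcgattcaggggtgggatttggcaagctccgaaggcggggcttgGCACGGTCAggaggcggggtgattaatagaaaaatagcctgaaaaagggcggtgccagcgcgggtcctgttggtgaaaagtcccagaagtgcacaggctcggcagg

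Each of the 3 windows held 1 core, and a match of letters is a description and not a binding site. The aryl hydrocarbon receptor core GCGTG, on either strand, was present for 19 of the 72 enzymes (26.4%) and 35.2% of genes, and for 12 of the 35, 3 of the 12 and 7 of the 19 in these same sets. The TCF/Lef core CTTTGA, on either strand, was present for 21 of the 72 (29.2%) and 18.2% of genes, and for 5 of the 35, 1 of the 12 and 2 of the 19. The 1 that peaked in Wnt-low cells, Aldh1a7, is set beside its neighbour Aldh1a1 because the pair are close copies with unlike patterns. The Aldh1a7 window, chr19:20727507-20727806 on the minus strand, held 1 core, in capitals, and 233 of 322 aligned positions (72.4%) were identical to the Aldh1a1 window chr19:20601718-20602017 on the plus strand, which held none. The other listed start of Aldh1a1, at chr19:20492333-20492632, held 3 cores and is not printed.
Aldh1a7: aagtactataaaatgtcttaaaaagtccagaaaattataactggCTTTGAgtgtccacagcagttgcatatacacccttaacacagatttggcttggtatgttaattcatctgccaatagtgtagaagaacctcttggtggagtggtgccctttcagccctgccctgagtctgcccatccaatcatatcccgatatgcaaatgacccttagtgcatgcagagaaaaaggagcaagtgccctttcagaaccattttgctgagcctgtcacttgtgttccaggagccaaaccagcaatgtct
Aldh1a1: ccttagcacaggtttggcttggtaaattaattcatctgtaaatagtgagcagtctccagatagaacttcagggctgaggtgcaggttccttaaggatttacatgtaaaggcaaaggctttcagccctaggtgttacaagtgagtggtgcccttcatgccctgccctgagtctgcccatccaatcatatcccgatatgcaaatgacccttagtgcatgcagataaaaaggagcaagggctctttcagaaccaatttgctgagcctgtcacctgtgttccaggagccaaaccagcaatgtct

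Genes of a family that lie next to each other in RefSeq's order on GRCm38.p6 shared a pattern in some clusters and not in others. In the glutathione transferase mu cluster the 7 genes were all called higher in Wnt-low than in Wnt-negative cells, and 3 of the 4 genes of the Fmo cluster were called alike, with Fmo4 not called. Cbr1 and Cbr3 were called alike in all 3 comparisons, as were Gstt1 and Gstt3. Gstp1 and Gstp3 were called in opposite directions against Wnt-negative cells. Aox1 and Aox3 were called in opposite directions in Wnt-high against Wnt-negative and both lower in Wnt-high against Wnt-low cells. Pon1 and Pon3 were also both lower in Wnt-high against Wnt-low, while Pon1 alone was called higher in Wnt-low and Pon3 alone lower in Wnt-high against Wnt-negative cells. Gsto1 and Gsto2 were both higher in both positive fractions and opposite between these. Sult1d1 lies among the Ugt2 genes and other Sult1 genes, and none of those was called. Close copies can share probes, so values of paralogues may not be fully separate.

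Genes that work with these enzymes were read from lists of cofactor suppliers, other conjugating and hydrolysing enzymes, other reductases, export pumps and regulators, with 55 of 63 listed genes measured. In Wnt-high cells 13 were called higher and 6 lower than in Wnt-negative cells, with a median difference of 0.01. For Wnt-low against Wnt-negative cells the count was 15 higher and 0 lower with a median of 0.20, and for Wnt-high against Wnt-low 4 higher and 14 lower with a median of −0.04. The shares of all genes called in each direction are those given above.

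Glutathione reductase, Gsr, which restores reduced glutathione, was higher by 2.36 ± 0.24 in Wnt-high and 2.02 ± 0.24 in Wnt-low than in Wnt-negative cells. Gclc, the catalytic subunit of the enzyme that limits glutathione synthesis, was lower by contrast in Wnt-high cells than in Wnt-negative cells (−1.64 ± 0.16). Ephx1, the microsomal epoxide hydrolase, was higher by 2.84 ± 0.25 and 2.97 ± 0.25 in the positive fractions. Nqo1, a quinone reductase, averaged 7.32 ± 0.42 in Wnt-high and 6.65 ± 0.92 in Wnt-low cells, both called higher than in Wnt-negative cells, where it was at background on all 6 arrays. The Wnt-low peak recurred in Adh7, an alcohol dehydrogenase acting on retinol, at 7.21 ± 1.28 in Wnt-high pools, 11.64 ± 0.99 in Wnt-low pools and 5.74 ± 0.52 in Wnt-negative cells (SD, n = 6 each). Abcc3, a pump that exports conjugates, averaged 8.50 ± 1.53 in Wnt-high pools, 12.99 ± 0.55 in Wnt-low pools and 10.85 ± 0.57 in Wnt-negative cells. Abcc1, a pump for glutathione conjugates, was called higher in both positive fractions. It averaged 7.03 ± 0.65 in Wnt-high pools, 7.53 ± 0.78 in Wnt-low pools and 5.02 ± 0.52 in Wnt-negative cells, where 3 of 6 arrays were above the background limit.

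Among 11 regulators, Nfe2l2, which encodes NRF2, and its inhibitor Keap1 were not called in any comparison, with differences from −0.09 to 0.10. Ahr, the aryl hydrocarbon receptor, was higher in Wnt-low than in Wnt-negative cells by 2.47 ± 0.31 (adjusted p = 3.47e-05), with −2.44 ± 0.31 for Wnt-high against Wnt-low. Nr1i2, the pregnane X receptor, averaged 7.18 ± 0.89 in Wnt-high pools, 5.00 ± 1.19 in Wnt-low pools and 4.24 ± 0.60 in Wnt-negative cells (SD, n = 6 each). It was above the background limit on no Wnt-negative array and on 3 of 6 Wnt-low arrays. Bach1, a repressor at antioxidant response elements, was lower in Wnt-high cells than in Wnt-negative cells (−1.51 ± 0.13).

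The runs were separate experiments, so each gave its own reading of the group differences. Of 26 enzymes called in the comparison of Wnt-high with Wnt-negative cells in experiments 2 to 5 alone, 23 were called in the same direction in experiments 7 to 9 alone, where the share over all genes was 83.4%. For Wnt-low against Wnt-negative it was 24 of 24 (68.4% over all genes) and for Wnt-high against Wnt-low 9 of 9 (87.7%), and none was called in opposite directions. Differences were often larger in the later run, for example 5.36 against 2.55 for Pon1 in Wnt-low over Wnt-negative cells. Pon1 is not among the 24, since its difference in experiments 2 to 5 alone was not called (limma adjusted p = 0.228). In a fit with a group by run interaction, no enzyme passed an adjusted p of 0.05 (smallest 0.306), while 15 of the 85 had an unadjusted p under 0.05, as did 2090 of 30142 genes.

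**Figure D4:**
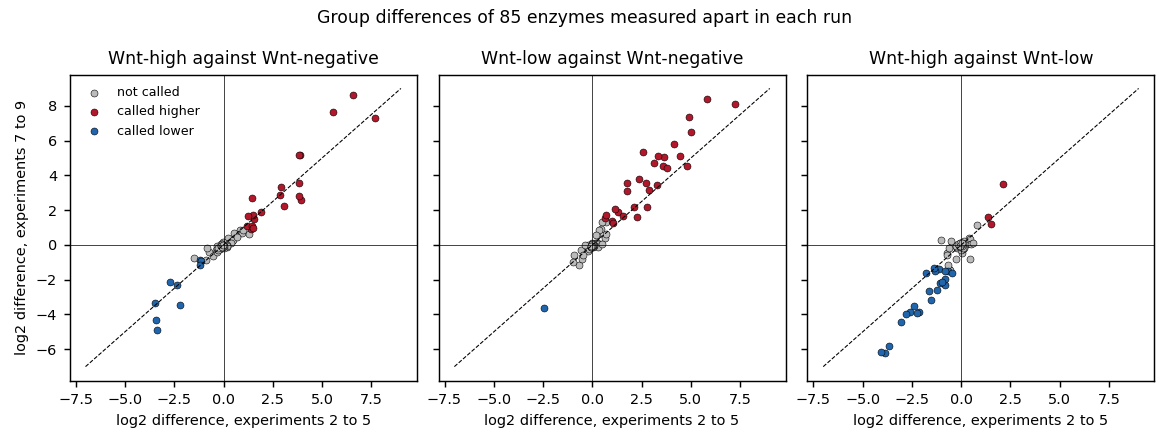
Log2 difference of each of the 85 enzymes in experiments 2 to 5 (horizontal) and in experiments 7 to 9 (vertical) for the 3 comparisons, with called enzymes in red (higher) or blue (lower) and the dashed line where both runs are equal. Called enzymes have the same sign in both runs, and most of those called in Wnt-low against Wnt-negative cells lie above the dashed line.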

How the data were processed

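RNA of 18 cell pools was measured on Affymetrix whole-transcript arrays after amplification with WT Pico reagents, per the labels' protocols. The authors made the deposited table with RMA, on a log2 scale for 72688 probe sets, per the submitters' processing notes. Which software version, chip library and genome build they used is not stated in the sources used here. RMA equalises arrays within a run. Separately, 8 called enzymes had identical values on all 3 arrays of some group and run, so their spread is understated. Identical values also occurred across groups, for example 9.10 for Aldh6a1 in all 3 groups in experiments 7 to 9. How they arose was not tested. Array number limits the precision of every value.

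The platform annotation gave the gene names of probe sets. Of these, 30604 had 1 gene symbol and 2146 had several, which named no gene, and 4 of the latter in the enzyme families were left out, as were 2 genes that joined a family only after their symbol was updated. The brightest probe set of a gene was used, which left 30142 genes. Enzymes and lists were chosen with earlier results of these data known. Genes were named by a rule: in each comparison the 5 highest and 5 lowest called differences with the same sign in both runs, and 13 fixed enzymes, with others by family.

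Differences were tested with limma 3.58.1 (lmFit, eBayes, two-sided) in R 4.3.3 over all 18 arrays with run as a term, adjusted by Benjamini-Hochberg over all genes. The test was checked on simulated data with independent noise on each array, so the check does not cover arrays that share an experiment. Labels give arrays of different groups the number of a shared experiment, which pairs them. Residuals of the 16 same-numbered pairs correlated at 0.00339 to 0.516, 12 above 0.1. Replicates are pools of separate experiments. Alternatives were no run term, blocks, each run alone, 2 groups at a time, experiments or arrays left out, other normalizations, a filter on dim genes, the mean of probe sets and a trended variance.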

Additional observations from a re-analysis of the deposited data

Results flagged for a closer look

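In 63 groups of 6 arrays, each value taken against its run's mean, 3 held an array whose gap to its nearest neighbour, as a share of the group's range, passed Dixon's critical value, and chance gives about 1 in 20. Fmo2, the lung flavin monooxygenase, read 9.24 on the Wnt-negative array of experiment 3, where the gap was 0.733 of the range: it lay at −1.17 against its run's mean and the other Wnt-negative arrays at −2.64 to −2.25. Gstm2 read 13.61 on the Wnt-high array of experiment 2, with a gap of 0.741, at 0.46 above its run's mean where the other Wnt-high arrays lay at 0.97 to 1.15. Gsto1 read 9.34 on the Wnt-low array of experiment 4, with a gap of 0.65, at 1.18 above its run's mean where the other Wnt-low arrays lay at 2.00 to 2.45.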

How the results depend on the processing

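For Wnt-high against Wnt-negative and Wnt-low against Wnt-negative, the counts of called enzymes stayed within 1.5 times of 29 and 30 under each of 19 alternatives. For Wnt-high against Wnt-low, called for 26 enzymes, the count was 16 (1 higher, 15 lower) with no run term, where the offset between runs enters the spread, and 9 (1 higher, 8 lower) in experiments 2 to 5 alone, a fit of fewer arrays. Leaving out 1 experiment at a time gave 27 to 29 for Wnt-high against Wnt-negative, 29 to 33 for Wnt-low against Wnt-negative, 24 to 29 for Wnt-high against Wnt-low, and 0 to 0 for the difference between runs. With the experiment as a replicate block, which follows the pairing, the counts were 27, 30 and 28 in the same order, and of the 51 results of single enzymes that were followed it changed the call of Gstp1 alone. Over all genes, calls without the run term were 2732, 1035 and 1298, against 4188, 2305 and 2742 with it. Of 969 recalculated results of single enzymes, 939 kept direction and call, 19 lost the call, 11 gained it and 0 reversed. Most losses came in experiments 2 to 5 alone, among them Pon1 (−4.07, adjusted p = 0.0688), Fmo2 (−3.66, 0.0655), Aox3 (−3.86, 0.0526), Gstt1 (−2.81, 0.0527) and Aldh3b1 (2.10, 0.143) in Wnt-high against Wnt-low cells. Without the run term Mgst3 (1.50, adjusted p = 0.0864), Gsto2 (1.37, 0.198) and Gsto1 (−1.41, 0.248) lost their call in that comparison, at unchanged differences. Signal close to the background limit or near the top of the scale limits Cbr2, Aldh1a1, Aldh3b1 in Wnt-high cells and the enzymes given as bounds.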
